A study of Homo sapiens with 6 samples.

Results

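Polycomb repressive complex 2 (PRC2) was examined through 10 genes: EZH2, EZH1, EED, SUZ12, RBBP4, RBBP7, JARID2, AEBP2, PHF19 and MTF2. A probe set was assigned to one of them where the platform annotation gave that symbol and no other, which took 151 of the 224320 probe sets with 1 symbol, and the 10 genes were among 18656 measured. All 10 had probe sets, from 7 for RBBP4 to 20 each for EZH2 and EZH1, and none was filtered out. The cells were AGS, an established human gastric adenocarcinoma line. In the inhibitor group (3 arrays) they received an anti-miR oligonucleotide that blocks the microRNA miR-25-3p, and in the control group (3 arrays) a non-targeting control RNA. Both groups were transfected with Oligofectamine, again after 24 h, and were harvested 48 h after the first transfection. RNA was read on Affymetrix Human Gene ST arrays, and the labels call the arrays of a group biological replicates, with no further word on whether they came from separate days.

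PRC2 places methyl groups on lysine residues of histone H3 and keeps developmental genes silent. EZH2 or its paralog EZH1 is the catalytic subunit, which is active only with EED and SUZ12, and RBBP4 or RBBP7 completes the core. Accessory subunits define variants of the complex: JARID2 and AEBP2 in one, and Polycomb-like proteins such as PHF19 and MTF2 in another. EZH2 is often abundant in dividing tumour cells, in the stomach as elsewhere, and has been reported as a target of the miR-25 family, so the comparison asked whether its message, or those of its partners, differ when miR-25-3p is blocked. MicroRNA levels were not measured on these arrays, so the extent of the block is not known from them.

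The mature sequences of the family are shown because the inhibitor is directed at one of them and the family shares the seed, bases 2 to 8, here in capitals. They are from RefSeq (GRCh38.p14), 5′ to 3′. MIR25 lies at chr7:100093571-100093592 on the minus strand.
hsa-miR-25-3p: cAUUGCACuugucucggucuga
hsa-miR-92a-3p: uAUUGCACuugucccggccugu
hsa-miR-92b-3p: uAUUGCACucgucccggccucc
hsa-miR-32-5p: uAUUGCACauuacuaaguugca
hsa-miR-363-3p: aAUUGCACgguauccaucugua
hsa-miR-367-3p: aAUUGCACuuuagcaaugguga
A message that pairs with this seed carries GTGCAAT in DNA letters. Position by position from the 5′ end, hsa-miR-92a-3p had the same base as hsa-miR-25-3p at 18 of 22 positions, hsa-miR-92b-3p at 16, hsa-miR-32-5p at 13, hsa-miR-367-3p at 12 and hsa-miR-363-3p at 9. Transcripts were not searched for the seed match, because their sequences were not used here.

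None of the 10 PRC2 genes passed the test between inhibitor and control arrays. A gene's value on an array is the mean of the log2 values of its probe sets, and differences are inhibitor minus control on that log2 scale. They were tested with limma over all genes, and a gene was called where its adjusted p was under 0.05. Limma called 0 of the 10 genes (background 0% of 18656 genes higher and 0% lower), and at an unadjusted p under 0.05 it also gave 0 of 10, where 6.12% of all genes passed, 2.95% higher and 3.16% lower. The lowest adjusted p among the 10, 0.79 for JARID2, is rounded from the same value as the lowest over all genes. The 10 differences lay between -0.16 for JARID2 and 0.14 for SUZ12, with 8 positive and 2 negative and a median of 0.041, against a median of 0.0021 over all genes, of which 50.5% were positive. The median absolute difference was 0.043 for the 10 genes and 0.091 for all genes. These medians were not matched for brightness: 9 of the 10 genes, all but PHF19, were in the brighter 50% of genes. The inhibitor arrays lay wholly on one side of the control arrays for 1 member, JARID2, against 12.9% of all genes, 5.2% with the inhibitor above and 7.68% with it below.

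**Figure D1:**
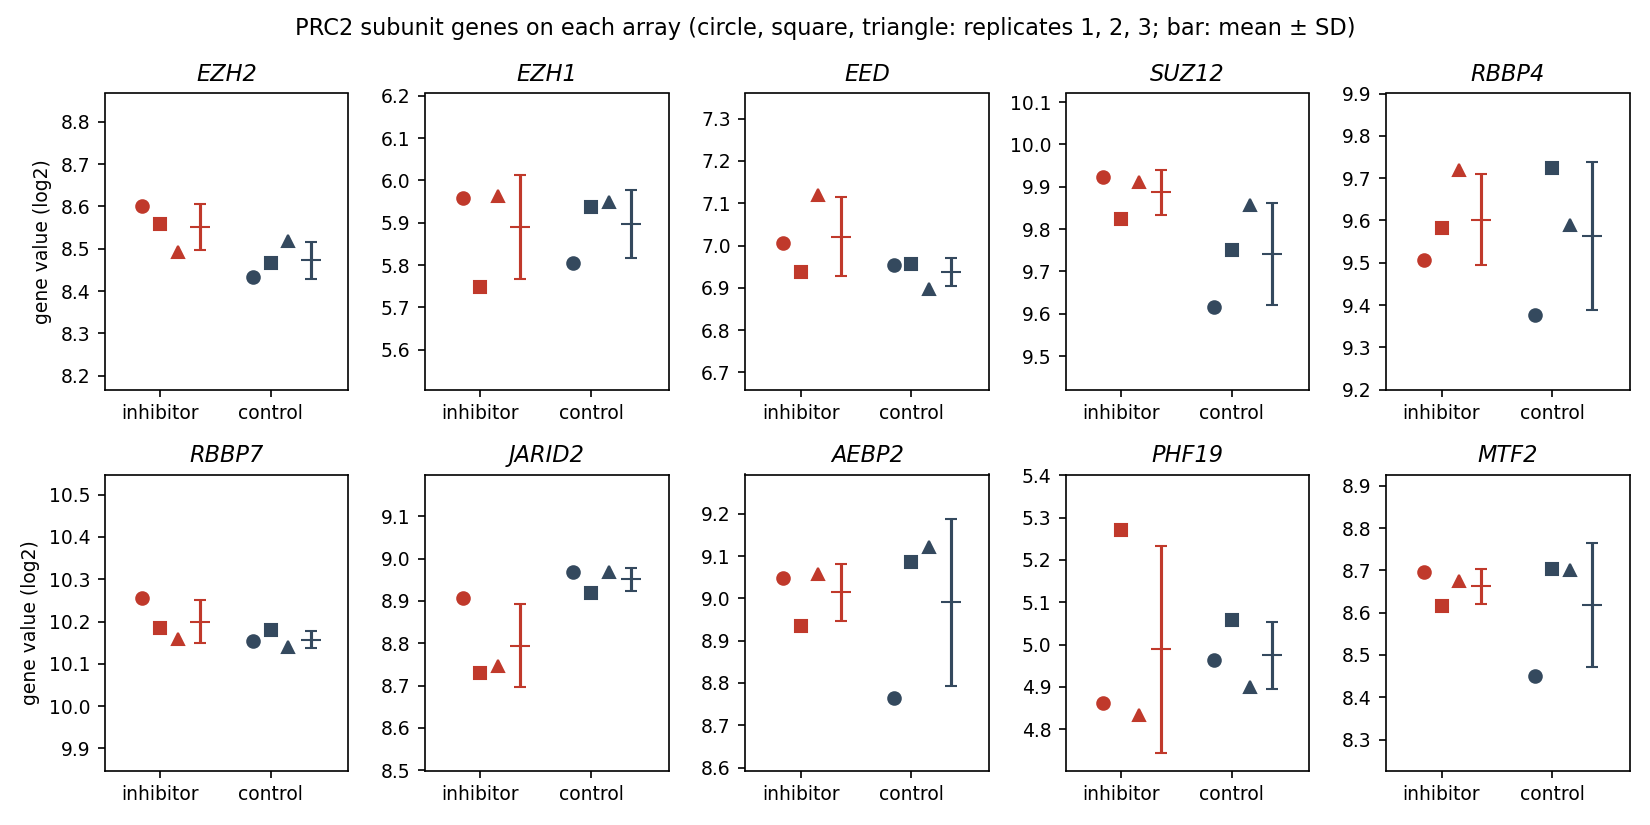
Gene values (log2, vertical axis) of the 10 PRC2 genes on the 3 inhibitor arrays and the 3 control arrays, each panel spanning the same height, with circles, squares and triangles for replicates 1, 2 and 3 and bars for the mean ± SD. The groups overlap in 9 panels; in the JARID2 panel the inhibitor arrays lie below the control arrays.

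Control replicate 1 had the lowest value of all 6 arrays for 5 of the 10 genes: EZH2, SUZ12, RBBP4, AEBP2 and MTF2. It was also the array least like the others over all genes, with a mean correlation of 0.9915 to them, against 0.9933 to 0.9938 for the other arrays. The mean over the 10 genes was 8.28, 8.24 and 8.27 in inhibitor arrays and 8.15, 8.28 and 8.26 in control arrays, which is 8.26 ± 0.020 and 8.23 ± 0.071 (SD, n = 3 each). Only control replicate 1 stood apart from the other 5 arrays. The mean difference over the 10 genes was 0.031 with all arrays and -0.010 without control replicate 1, and the number of positive members was 8 with it and 5 without it.

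EZH2, the main catalytic subunit in dividing cells, was slightly brighter in inhibitor arrays, by less than the test could tell from 0. It had 8.60, 8.56 and 8.49 in inhibitor arrays against 8.43, 8.47 and 8.52 in control arrays, a mean of 8.55 ± 0.055 and 8.47 ± 0.043 (SD, n = 3 each). Inhibitor replicate 3 lay below control replicate 3, and the other inhibitor arrays lay above every control. The difference was 0.079 (SE 0.084, adjusted p = 0.87 in limma), with a 95% interval of -0.11 to 0.27. On the linear scale that is a 5.59% higher signal, with an interval reaching down to -7.59% and up to 20.7%. EZH2 was among the steadier genes, with a residual SD at the 4.4th percentile of all genes, and its 6 values spanned 0.17. Its value averaged 20 probe sets, against a median of 10 per gene, and genes with equal numbers of probe sets were not compared.

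The 20 probe sets of EZH2 did not move as one. Of these, 14 were positive and 6 negative, with a median of 0.11 and a range from -0.48 to 0.41. The groups of arrays did not overlap for 3 of them, each with the inhibitor higher, against 12.2% of all probe sets in either direction and 5.89% with the inhibitor higher. Probe set 8143677 had 9.37, 9.42 and 9.51 in inhibitor arrays against 8.98, 9.10 and 9.06 in control arrays, a difference of 0.39 (SE 0.13, unadjusted p = 0.025, adjusted p = 0.80 in limma over all probe sets). Probe sets 8143671 and 8143670 had differences of 0.26 (SE 0.13) and 0.24 (SE 0.14). The most negative, 8143681, had 8.44, 7.90 and 7.64 in inhibitor arrays against 8.63, 8.40 and 8.38 in control arrays, a difference of -0.48 (SE 0.24) in which inhibitor replicate 1 lay among the controls. The brightest probe set, 8143679, had a difference of 0.0067 (SE 0.14). Only 2 of the 20 lay below the median of the whole table in mean brightness, so dim probe sets were few. The annotation used here does not give the exon that each probe set reads, and no isoform was inferred.

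**Figure D2:**
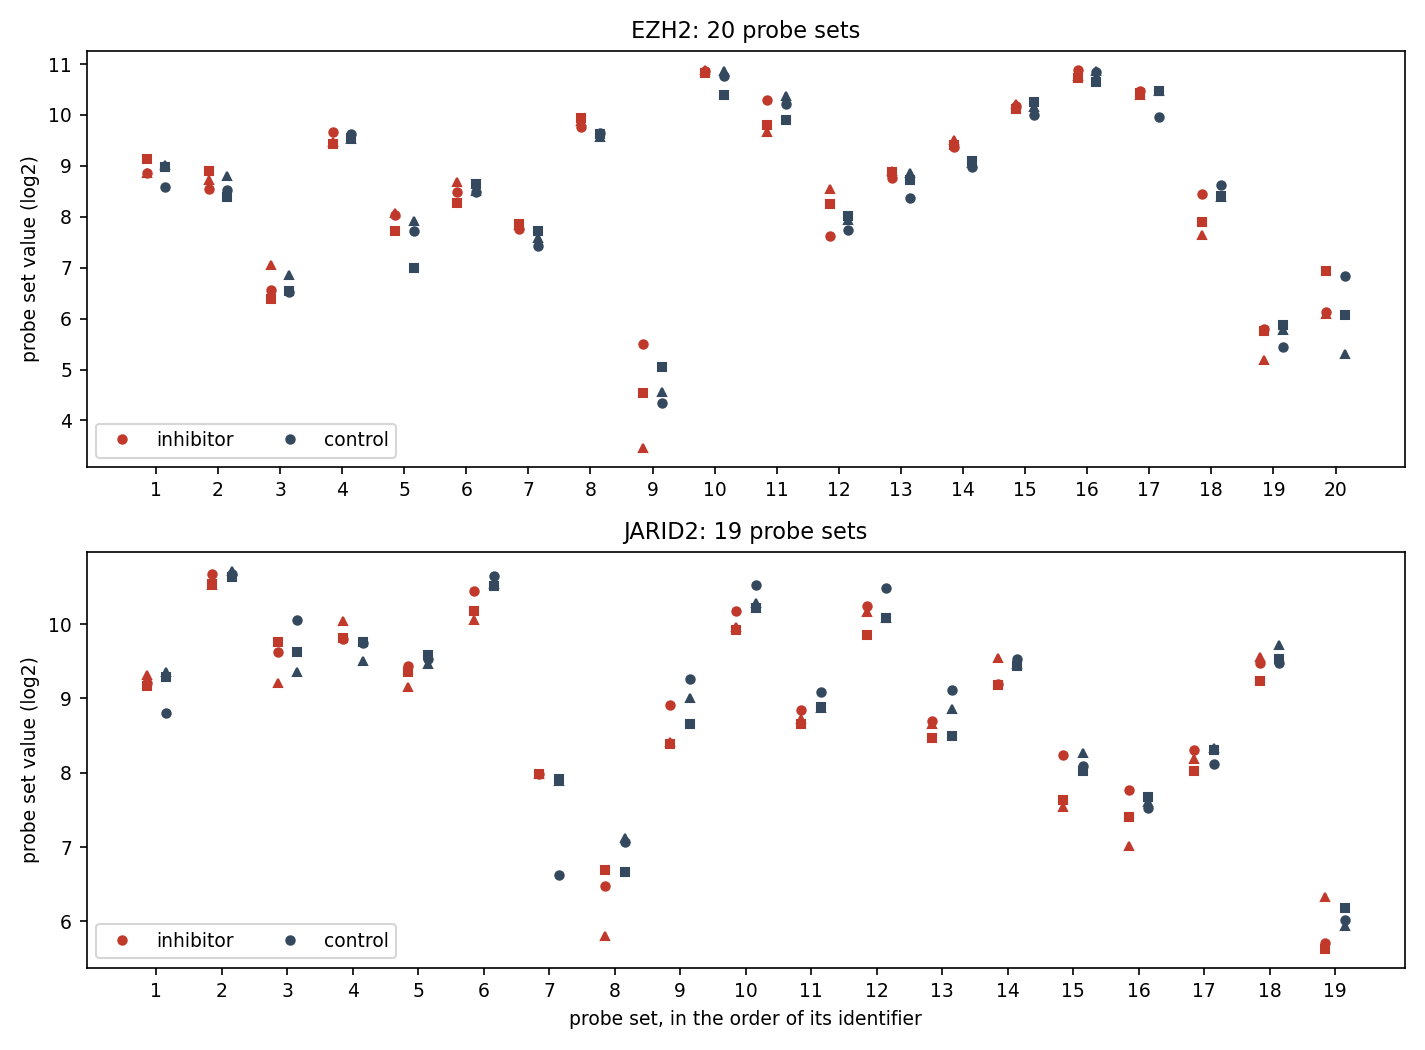
Log2 values (vertical axis) of each probe set of EZH2 (20) and JARID2 (19) in the order of their identifiers, with inhibitor arrays to the left of control arrays at each position and circles, squares and triangles for replicates 1, 2 and 3. Probe sets of 1 gene differ far more from each other than the groups do; 14 of 20 EZH2 probe sets had a positive difference and 16 of 19 JARID2 probe sets a negative one.

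EZH1, the catalytic paralog that prevails in resting and differentiated cells, had nearly the same mean in both groups. Its values were 5.96, 5.75 and 5.96 in inhibitor arrays against 5.80, 5.94 and 5.95 in control arrays, a difference of -0.0073 (SE 0.099, adjusted p = 0.99 in limma) with an interval of -0.23 to 0.22. Inhibitor replicate 2 was the lowest of all 6 arrays and inhibitor replicate 3 the highest. Of its 20 probe sets, 7 were positive and 13 negative, and 11 were dimmer than the table's median. The smallest p in each direction belonged to probe set 8015697 at 0.56 (SE 0.17, unadjusted p = 0.018, adjusted p = 0.79 in limma), on a dim signal of 3.65 in inhibitor arrays, and probe set 8015698 at -0.32 (SE 0.17). Whether the paralogs differed in response was tested on the EZH2 value minus the EZH1 value of each array. This was 2.64, 2.81 and 2.53 in inhibitor arrays against 2.63, 2.53 and 2.57 in control arrays, a difference of 0.086 (two-sided exact permutation test over 20 arrangements, p = 0.50, where 0.10 is the smallest p possible). The genes are read by different probes, so this offset is not a ratio of messages.

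Among the core partners, SUZ12, the scaffold that holds the complex together, had the largest positive difference. It had 9.92, 9.83 and 9.91 in inhibitor arrays against 9.62, 9.75 and 9.86 in control arrays, a mean of 9.89 ± 0.054 and 9.74 ± 0.12 (SD, n = 3 each). Inhibitor replicate 2 lay below control replicate 3, so the groups overlapped by 1 array on each side. The difference was 0.14 (SE 0.095, adjusted p = 0.80 in limma), interval -0.072 to 0.36, and 0.082 without control replicate 1. Of 10 probe sets, 8 were positive, against 49.7% of all probe sets, and for 3 the inhibitor arrays lay wholly above the controls, against 5.89%. These probe sets make up the gene value and are not independent, so the counts are no separate check of it. Probe set 8006330 had 0.52 (SE 0.22) and probe set 8006332 had -0.18 (SE 0.15). The RefSeq table names 2 pseudogenes of SUZ12, so its probe sets may read more than 1 locus.

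EED, the subunit that binds trimethylated histone H3 and stimulates the enzyme, had 7.01, 6.94 and 7.12 in inhibitor arrays against 6.95, 6.96 and 6.90 in control arrays. The difference was 0.085 (SE 0.089, adjusted p = 0.87 in limma), interval -0.12 to 0.29, and 0.035 without inhibitor replicate 3. Inhibitor replicate 2 lay among the controls. It rested on unequal probe sets: 11 of 17 were positive, and the largest, 7942931, had 5.98, 5.42 and 5.37 in inhibitor arrays against 4.51, 5.23 and 3.17 in control arrays. That probe set differed by 1.29 (SE 0.53) with a control SD of 1.05, and the smallest p in the other direction was -0.42 (SE 0.25) for 7942915. With the median of probe sets the sign turned, to -0.090, and the RefSeq table names 1 pseudogene of EED.

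RBBP4 and RBBP7 are histone-binding WD40 proteins that also serve other chromatin complexes. RBBP4 had 9.51, 9.58 and 9.72 in inhibitor arrays against 9.38, 9.72 and 9.59 in control arrays, with the groups fully interleaved. Its difference was 0.039 (SE 0.11), interval -0.22 to 0.30, and -0.055 without control replicate 1. The RefSeq table names 7 pseudogenes of RBBP4, so its probe sets may also read other loci. Probe sequences were not compared. RBBP7 was the least variable member, with 10.26, 10.19 and 10.16 in inhibitor arrays against 10.15, 10.18 and 10.14 in control arrays, all 6 within 0.12. Its difference was 0.043 (SE 0.083), interval -0.15 to 0.23, and 0.015 without inhibitor replicate 1. It was split evenly over 7 positive and 7 negative probe sets. RBBP7 still held 2 of the 5 member probe sets at an unadjusted p under 0.05, 8171526 at 0.50 (SE 0.16) and 8171518 at 0.48 (SE 0.19), and the smallest p on the negative side was -0.16 (SE 0.14) for 8171524. For RBBP4 the probe sets with the smallest p were 7899820 at 0.25 (SE 0.16) and 7899815 at -0.21 (SE 0.13). Both genes had an adjusted p of 0.93 or more in limma (0.96 for RBBP4 and 0.93 for RBBP7).

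JARID2, which recruits PRC2 to chromatin and is related to histone demethylases without being one, was the only member with no overlap between groups. It had 8.91, 8.73 and 8.75 in inhibitor arrays against 8.97, 8.92 and 8.97 in control arrays, a mean of 8.79 ± 0.097 and 8.95 ± 0.027 (SD, n = 3 each). Inhibitor replicate 1 lay just under the lowest control and the other inhibitor arrays further below. Over all genes, 7.68% had the inhibitor arrays wholly below the controls. The difference was -0.16 (SE 0.089, unadjusted p = 0.11, adjusted p = 0.79 in limma), with an interval of -0.36 to 0.046, or from -22.1% to 3.27% on the linear scale. Of its 19 probe sets 16 were negative, the most one-sided split among the 10 genes, with a median of -0.16. For 4 of them the inhibitor arrays lay wholly below the controls and for 2 wholly above, against 6.32% and 5.89% of all probe sets. The gene value is the mean of these same probe sets, so their counts are no separate check of it. The smallest p belonged to 8117006, with 6.47, 6.69 and 5.80 in inhibitor arrays against 7.07, 6.67 and 7.12 in control arrays, a difference of -0.63 (SE 0.28). The smallest p among its positive probe sets belonged to 8117002, at 0.22 (SE 0.15). The sign was negative under all 17 alternatives run, from -0.21 to -0.10, with adjusted p between 0.59 and 0.92 in limma.

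AEBP2, a zinc finger protein found with JARID2 in the same variant, had 9.05, 8.94 and 9.06 in inhibitor arrays against 8.76, 9.09 and 9.12 in control arrays. Control replicate 1 was lowest and the other controls were the highest of all arrays. The difference was 0.024 (SE 0.11), interval -0.24 to 0.28, and -0.089 without control replicate 1. None of its 11 probe sets had groups apart, and those with the smallest p were 7954290 at 0.28 (SE 0.26) and 7954284 at -0.18 (SE 0.19).

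The Polycomb-like subunits were also without a clear difference. MTF2, which guides PRC2 to CpG islands, had 8.70, 8.62 and 8.68 in inhibitor arrays against 8.45, 8.70 and 8.70 in control arrays, and control replicate 1 was again the lowest. Its difference was 0.044 (SE 0.10), interval -0.18 to 0.27, and -0.040 without that array. Probe set 7903036 had 0.36 (SE 0.14, unadjusted p = 0.042, adjusted p = 0.80 in limma), while 7903041 had -0.82 (SE 0.43), with inhibitor replicate 3 alone at 7.87, where the other 5 arrays read 9.37 to 9.76. PHF19, which also binds methylated histone H3, was the most variable member, with 4.86, 5.27 and 4.83 in inhibitor arrays against 4.96, 5.06 and 4.90 in control arrays. Inhibitor arrays held both its highest and its lowest value. Its difference was 0.014 (SE 0.13), interval -0.28 to 0.31, and 13 of its 17 probe sets were dimmer than the table's median. The PHF19 probe sets with the smallest p were 8163816 at 0.67 (SE 0.32) and 8163817 at -0.48 (SE 0.25).

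**Figure D3:**
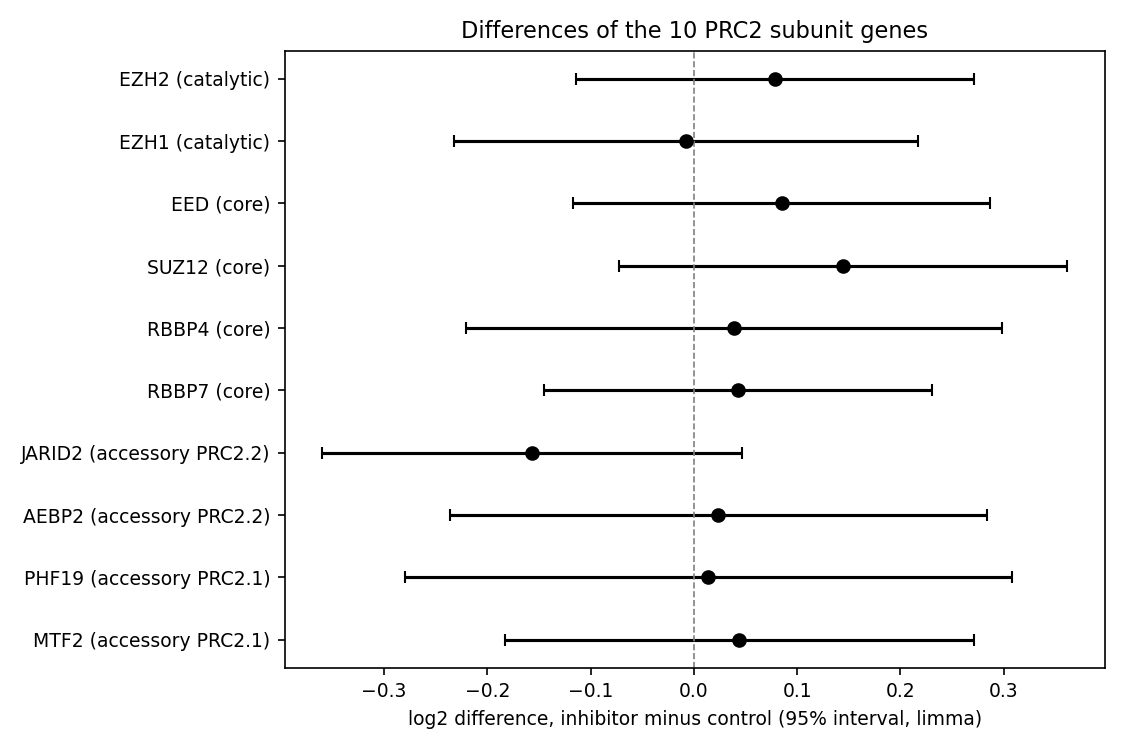
Log2 differences between inhibitor and control arrays (horizontal axis, points) with 95% intervals from limma (bars) for the 10 PRC2 genes, each labelled with its role in the complex. Every interval includes 0, and JARID2 at -0.16 and SUZ12 at 0.14 lie furthest from it.

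Over all 151 probe sets of the complex, 80 differences were positive, 70 negative and 1 exactly 0, with a median of 0.023, and 49.7% of all probe sets were positive. Limma called 0 of them (background 0% of 224320 probe sets in each direction). At an unadjusted p under 0.05 there were 5, or 3.31%, all positive, where 6.21% of all probe sets passed, 3.11% as higher and 3.09% as lower. These were 1 each of EZH2, EZH1 and MTF2 and 2 of RBBP7. The groups did not overlap for 23 probe sets, or 15.2%, 16 with the inhibitor higher and 7 lower, against 12.2% of all probe sets, 5.89% higher and 6.32% lower. Probe sets of 1 gene share its messages and are not independent.

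Over the 6 arrays the members did not share one pattern with EZH2, and all these correlations are descriptions over arrays of 2 groups. Pearson's r with EZH2 was highest for SUZ12 at 0.77 (Spearman's rho 0.77) and RBBP7 at 0.73 (rho 0.60). Without the 2 arrays furthest from the EZH2 median, inhibitor replicate 1 and control replicate 1, these became 0.26 and 0.099, so both rested on those arrays. The other 7 members had r between -0.31 for JARID2 and 0.51 for MTF2. Without the same 2 arrays their r also moved, to between -0.89 for RBBP4 and 0.56 for PHF19, with MTF2 at -0.81. The genes most like EZH2 outside the complex, of 9319 brighter genes compared, were FAHD2B (r = 0.992), CEP295 (0.981), ALKBH3 (0.962), ATAD1 (0.958) and IFNGR1 (0.955). CEP295 encodes a centriole protein, ALKBH3 a DNA repair demethylase and IFNGR1 a receptor chain for interferon gamma. Without the 2 furthest arrays r was 0.833 to 0.974 for these 5, and 46 of the 9319 genes had r over 0.9. The 5 genes were picked for their r over these same 6 arrays. A high r on the arrays left follows in part from that choice and is no separate check.

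Promoters of EZH2 and SUZ12 are shown because EZH2 is a known E2F target and SUZ12 had the highest r with it; of 2 EZH2 windows in the table, the one that holds matches is printed. Each window runs from 250 bases before to 50 after the start in RefSeq (GRCh38.p14), 5′ to 3′ on the gene's strand. Capitals mark matches on either strand to an E2F-like motif, TTTNNCGC, and to the CCAAT box, CCAAT, which do not overlap in these windows.
EZH2, chr7:148884242-148884541, minus strand: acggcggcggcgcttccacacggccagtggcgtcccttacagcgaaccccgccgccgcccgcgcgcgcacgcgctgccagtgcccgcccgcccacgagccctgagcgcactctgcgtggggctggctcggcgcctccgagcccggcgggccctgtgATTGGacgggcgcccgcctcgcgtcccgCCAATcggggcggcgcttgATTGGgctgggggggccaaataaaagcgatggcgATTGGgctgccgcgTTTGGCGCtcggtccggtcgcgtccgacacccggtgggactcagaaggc
SUZ12, chr17:31936757-31937056, plus strand: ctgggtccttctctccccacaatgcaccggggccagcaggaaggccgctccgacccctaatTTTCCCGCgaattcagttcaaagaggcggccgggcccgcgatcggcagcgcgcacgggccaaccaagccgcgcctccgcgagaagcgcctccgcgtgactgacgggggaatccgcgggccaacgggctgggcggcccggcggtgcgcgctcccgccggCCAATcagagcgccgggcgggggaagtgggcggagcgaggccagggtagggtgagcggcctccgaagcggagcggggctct
The EZH2 window printed held 4 CCAAT boxes, from base -94 to base -9 relative to the start, and an E2F-like match at bases 2 to 9. RefSeq's table has another EZH2 window, chr7:148883436-148883735 on the minus strand, with 77.0% GC, 0 E2F-like matches and 0 CCAAT boxes. The SUZ12 window held 1 of each, the E2F-like match at bases -189 to -182. RefSeq's table had 15 windows for the 10 genes, some overlapping. An E2F-like match was in 7 of the 15 windows (46.7%), against 6.89% of 35116 promoters of the same length, and a CCAAT box in 10 (66.7%), against 34.6%. The median GC share of all these promoters was 58.7%, and the printed EZH2 and SUZ12 windows had 74.7% and 73.0%, so the windows differ in base composition too. A match is a run of letters and not a measured binding site.

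E2F-driven replication genes were set beside EZH2 because they follow the cell cycle as it does. Of 29 measured genes, 20 were positive and 9 negative, with a median of 0.058, where 50.5% of all genes were positive. The part of control replicate 1 in this split was not tested. In limma 0 passed the adjusted threshold, and 1 was higher and 0 lower at an unadjusted p under 0.05 (background 2.95% and 3.16%). That gene was GINS2, a subunit of the replicative helicase complex, at 0.27 (SE 0.11), and the next was the polymerase subunit gene POLA1 at 0.18 (SE 0.12). The most negative evidence was for TK1, thymidine kinase, at -0.16 (SE 0.090) and the helicase subunit gene MCM2 at -0.10 (SE 0.087). The list mean was 8.07 to 8.13 in inhibitor arrays and 7.96 to 8.10 in control arrays, which overlap. In bulk RNA, fewer cells in a phase and less message per cell cannot be told apart, and the part of the cell cycle in the EZH2 values was not tested.

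Other Polycomb genes likewise gave 0 calls in limma. Of 5 further PRC2 accessory genes, 4 were positive and 1 negative, with a median of 0.14. LCOR, whose locus encodes a PRC2-binding protein, had 0.20 (SE 0.11), and EZHIP, an inhibitor of EZH2, had 0.22 (SE 0.16) on a signal of 4.97 in inhibitor arrays and 4.74 in control arrays. PHF1, the third Polycomb-like gene, had -0.12 (SE 0.085). Among 24 genes of PRC1, the complex that ubiquitinates histone H2A, 10 were positive and 14 negative, with a median of -0.015. At an unadjusted p under 0.05, 2 were lower: PCGF2, a RING finger subunit, at -0.28 (SE 0.097), and CBX8, a chromodomain subunit, at -0.22 (SE 0.087), where 3.16% of all genes were lower. Neither overlapped between groups, as for the 7.68% of all genes with the inhibitor wholly below, and limma's adjusted p was 0.79 for each. The positive side was led by SCML2 at 0.21 (SE 0.10) and CBX2 at 0.15 (SE 0.10).

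Genes of enzymes and complexes that oppose PRC2, and of other complexes that share RBBP4 or RBBP7, did not pass either. The histone H3 demethylase gene KDM6A had 0.19 (SE 0.11) and its paralog KDM6B -0.18 (SE 0.096). These were the largest differences of either sign among 5 measured genes of demethylation and H2A deubiquitination. BAP1 was listed with them but not measured. Of 15 genes of SWI/SNF remodelling and MLL methyltransferases, 4 were positive and 11 negative, with a median of -0.052. The remodelling ATPase gene SMARCA4 had -0.18 (SE 0.094) and SMARCB1 -0.16 (SE 0.082), against SMARCC1 at 0.13 (SE 0.094) and ARID2 at 0.14 (SE 0.12). In 20 genes of other complexes that contain RBBP4 or RBBP7, 8 were positive and 12 negative, with a median of -0.021; the deacetylase gene HDAC2 had 0.24 (SE 0.13) and MTA3 0.18 (SE 0.089), against CHD3 at -0.19 (SE 0.10) and MTA1 at -0.12 (SE 0.088).

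Genes that PRC2 is reported to silence showed no common direction. Of 20 measured genes reported as repressed by EZH2, 10 were positive and 10 negative, with a median of 0.0017. SFRP1, a secreted WNT antagonist, was the only one at an unadjusted p under 0.05 (background 2.95% higher and 3.16% lower), with 4.69, 4.67 and 4.64 in inhibitor arrays against 4.60, 4.06 and 4.04 in control arrays. Its difference was 0.43 (SE 0.15, adjusted p = 0.79 in limma), and control replicate 1 lay close under the inhibitor arrays. The tumour suppressor RUNX3 had 0.23 (SE 0.11), the transcription factor KLF2 -0.22 (SE 0.12) and the cell cycle inhibitor CDKN2B -0.14 (SE 0.084). Of 38 developmental transcription factors typical of Polycomb domains, 19 were positive and 19 negative, with a median of 0.0014. HOXA10 at -0.22 (SE 0.085) and DLX1 at -0.32 (SE 0.14) were the 2 lower at an unadjusted p under 0.05, against 3.16% of all genes, and LHX2 at 0.22 (SE 0.11) and NKX6-1 at 0.25 (SE 0.13) led the positive side. The list mean was 4.79 to 4.83 in inhibitor arrays and 4.82 to 4.88 in control arrays, below the array medians of 6.02 to 6.07. Single genes of this list averaged from 2.575 to 9.82 over all arrays, so some were bright. The brightest, GATA4, had 9.73 in inhibitor and 9.92 in control arrays, a difference of -0.19 (SE 0.082).

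Of 15 genes of DNA and histone H3 lysine methylation outside Polycomb, 4 were positive and 11 negative, with a median of -0.097, where 50.5% of all genes were positive. The list mean was 7.21 to 7.25 in inhibitor arrays and 7.31 to 7.38 in control arrays. At an unadjusted p under 0.05, 3 were lower, where 3.16% of all genes were, and 0 passed after adjustment in limma. TET3, an oxidase of methylated DNA, had 6.19, 6.11 and 5.96 in inhibitor arrays against 6.66, 6.25 and 6.59 in control arrays, a difference of -0.41 (SE 0.13). The DNA methyltransferase gene DNMT3A had -0.25 (SE 0.11), and the histone methyltransferase gene EHMT2, named after its value was seen, had -0.21 (SE 0.091). SUV39H2 had 0.18 (SE 0.093) and DNMT3L 0.11 (SE 0.12).

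**Figure D4:**
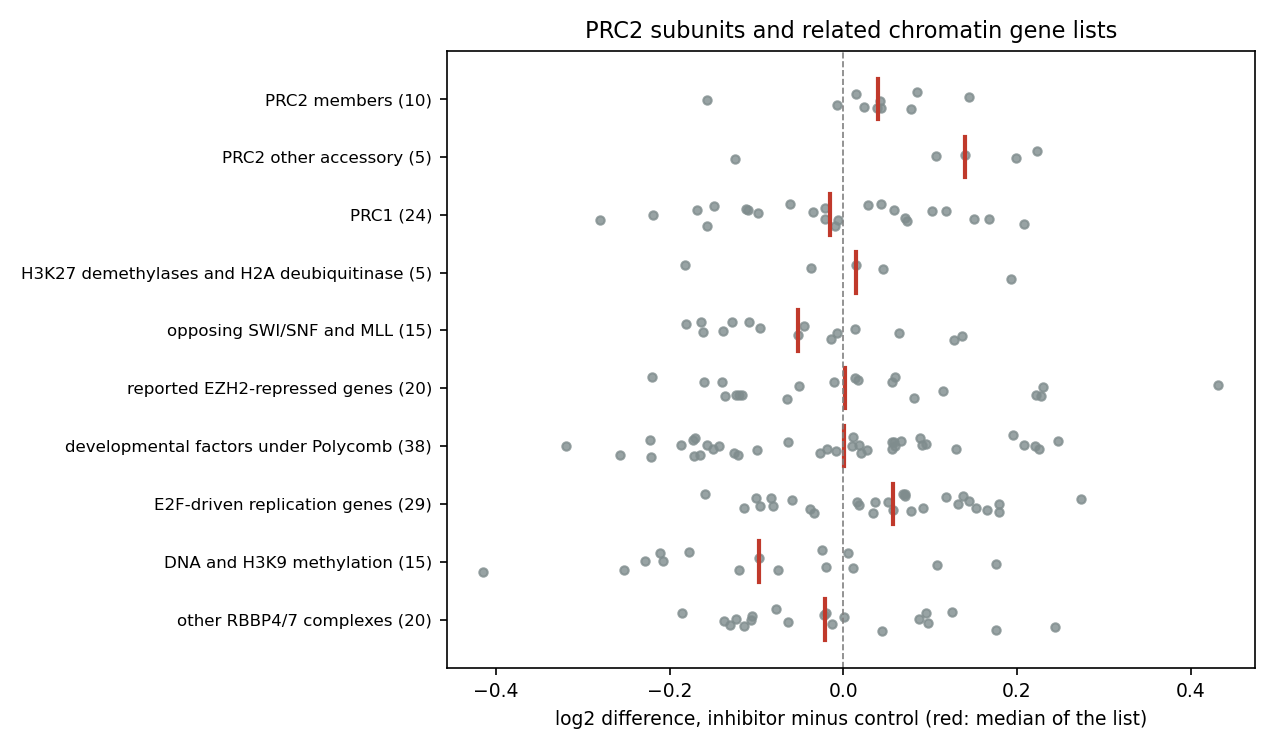
Log2 differences between inhibitor and control arrays (horizontal axis) of single genes (grey points) in the PRC2 set and in 9 related lists, with the number of measured genes in parentheses and red bars for the list medians. The medians lie between -0.097 for DNA and H3K9 methylation genes and 0.14 for other PRC2 accessory genes.

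The label of the cells was checked against 13 measured epithelial markers, whose means over all arrays ran from 2.56 to 12.0. CLDN3, CLDN4, MUC6, GKN1 and PGC are given no values here, and the dimmest marker, at 2.56, is among them. KRT8, KRT18, KRT19 and EPCAM, which mark simple epithelium, averaged 12.0, 10.5, 9.69 and 10.6 in inhibitor arrays and 12.0, 10.6, 9.69 and 10.4 in control arrays. The gastric markers ATP4A, of parietal cells, and TFF2, a trefoil factor, were dim, at 4.55 and 4.39 in inhibitor arrays and 4.34 and 4.57 in control arrays. The mucin gene MUC1 and the trefoil factor gene TFF1, the second named after its value was seen, lay above the array medians, at 7.94 and 6.78 in inhibitor arrays and 8.13 and 7.01 in control arrays. MUC1 had the lowest p of the negative genes in that list, with a difference of -0.19 (SE 0.093, unadjusted p = 0.070, adjusted p = 0.79 in limma). Mean levels of marker lists were 3.93 to 4.06 in inhibitor and 3.89 to 4.08 in control arrays for 8 fibroblast genes, 4.57 to 4.60 and 4.46 to 4.60 for 7 leukocyte genes, and 3.88 to 3.92 and 3.89 to 4.08 for 6 endothelial genes. PTPRC, which defines leukocytes, was at 2.62 in inhibitor and 2.55 in control arrays. At an unadjusted p under 0.05, CD14 had 0.46 (SE 0.16) and PECAM1 -0.46 (SE 0.17), both on dim signals, where 2.95% of all genes were higher and 3.16% lower. Their part in the results was not tested.

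**Figure D5:**
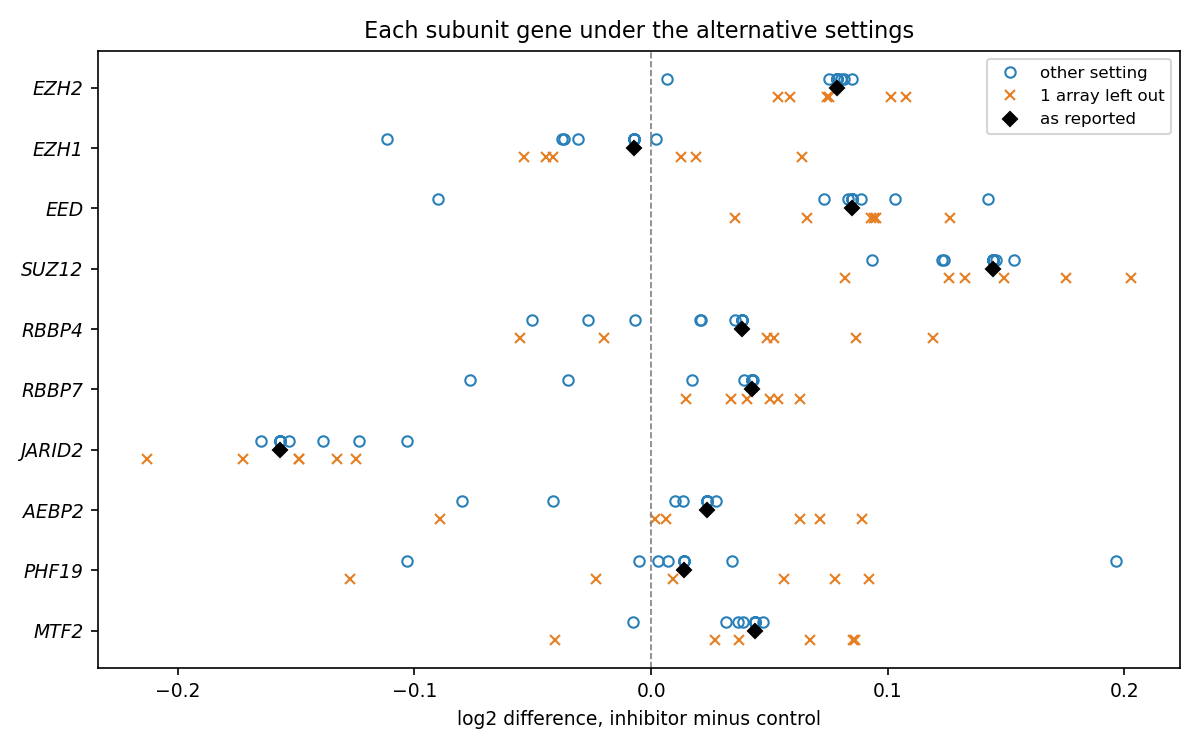
Log2 differences between inhibitor and control arrays (horizontal axis) of each PRC2 gene as reported (black diamonds), with 1 array left out (orange crosses) and under each other setting (blue circles). EZH2 and SUZ12 stay above 0 and JARID2 below 0 at every setting plotted; the other 7 genes have points on both sides.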

How the data were processed

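The deposited table holds log2 expression values of 257430 probe sets on 6 arrays, rounded by the authors to 2 decimals. Tools named in the submitters' processing notes are RMA, Transcriptome Analysis Console and Affymetrix Expression Console, with no version. RMA brings arrays to nearly one distribution, which hides any shift common to most genes. Array medians were 6.02 to 6.07. Scanner files were not used here, a genome build for the probe sets is not given in the sources used here. Precision is limited by having 3 arrays a group. Symbols came from the platform annotation: 224320 probe sets had 1 symbol, 10159 several and 22951 none here, and 2533 symbols were updated through RefSeq synonyms. No update touched the 10 PRC2 genes.

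Gene values were means over probe sets. Inhibitor and control arrays were compared in limma 3.58.1 (R 4.3.3, lmFit and eBayes) over 18656 genes, and over the 224320 probe sets. Adjustment was by Benjamini-Hochberg with a threshold of 0.05. No replicate block was used, since the labels name none. Same-numbered arrays deviated together with correlations of -0.032, -0.040 and 0.17. This comparison was simulated 20 times with 200 changed genes among 18656. Limma found 0.6% of those with a log2 change of 0.3, 17.6% at 0.5, 88.4% at 1 and 99% at 2. Of the genes it called, 6.25% on average were unchanged. The simulated noise was independent between arrays, with no array set apart as control replicate 1 was. Intervals are limma's moderated 95% intervals for 1 gene.

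The members, lists and tests were chosen with earlier results of these data known. Named were all members, for each the probe set with the smallest p in each direction (for EZH2 also others), up to 2 genes of each sign with the lowest p of a list, defining markers, and the 5 brighter genes most like EZH2 by Pearson's r. Outside this rule, GATA4 was named as the brightest of its list, and EHMT2 and TFF1 after their values were seen. Listed genes without a probe set of their own were not analysed here. Alternatives covered the replicate block, leaving out arrays, 2 normalizations, 2 filters on dim genes, 3 ways of combining probe sets, 2 variance estimates and array weights.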

Additional observations from a re-analysis of the deposited data

How the results depend on the processing

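Limma called 0 of the 10 PRC2 genes at adjusted p and 0 at an unadjusted p under 0.05 in all 17 alternatives, and 0 of their probe sets in the 12 alternatives run on these. With the replicate block EZH2 kept its difference of 0.079 (adjusted p = 0.85 in limma), and the block changed no call. EZH2 ranged from 0.0067, with its brightest probe set, to 0.11, and its adjusted p from 0.75 to 0.995. EZH2 minus EZH1 stayed positive in the 11 alternatives run, at 0.011 to 0.20. Over all genes, 1 was called without control replicate 3 and the range over removed arrays was 0 to 1. The number of positive members, 8, became 4 with the median of probe sets, 5 with the brightest, 4 with array weights and 5 to 9 with an array removed, the lowest without control replicate 1. The mean over members became -0.012 with the brightest probe sets and -0.010 without control replicate 1. The number of members without overlap, 1, became 2 with quantile normalization, 2 without the dimmest 30% of probe sets and 1 to 5 with an array removed, the highest without inhibitor replicate 2. This number was 3 without inhibitor replicate 3, control replicate 1 or control replicate 3, and 2 without control replicate 2. Fewer arrays overlap less: with 1 removed, 21.2% to 25.0% of all genes were apart, against 12.9%. PHF19 was left out by the filter on the dimmest 50% of genes, which kept the other 9 members.

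Signs turned for EZH1 without inhibitor replicate 2 (0.064), control replicate 2 (0.013) or control replicate 3 (0.019) and with cyclic loess (0.0022). With the median of probe sets they turned for EED (-0.090), RBBP4 (-0.0067), RBBP7 (-0.035) and AEBP2 (-0.080), and with the brightest probe set for RBBP4 (-0.027), RBBP7 (-0.077) and PHF19 (-0.10). Array weights turned RBBP4 (-0.050), AEBP2 (-0.041), PHF19 (-0.0051) and MTF2 (-0.0075). Leaving out control replicate 1 turned RBBP4 (-0.055), AEBP2 (-0.089) and MTF2 (-0.040), leaving out inhibitor replicate 3 turned RBBP4 (-0.020), and leaving out inhibitor replicate 2 or control replicate 3 turned PHF19 (-0.13 and -0.023). With 1 array removed the differences ranged from -0.054 to 0.064 for EZH1, -0.055 to 0.12 for RBBP4, -0.089 to 0.089 for AEBP2, -0.13 to 0.092 for PHF19, -0.040 to 0.086 for MTF2, 0.035 to 0.13 for EED and 0.015 to 0.063 for RBBP7. The cause was not tested. A simulated log2 change of 0.3 was recovered by limma in 0.6% of cases, and smaller changes were not simulated.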
